A study of Mus musculus with 8 samples.

Results

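Of 1449 cell barcodes with 50 or more unique molecular identifiers (UMIs) in a single-cell RNA table of mouse stomach glands, 59 were rich in Ptpn18, the gene of a cytosolic tyrosine phosphatase of the PEST family. They made up 4.07% of these barcodes (95% exact Clopper-Pearson interval 3.11 to 5.22). A barcode was counted as Ptpn18-rich when it held 3 or more Ptpn18 UMIs and these were 1% or more of its UMIs. The comparison group was the 898 barcodes with 50 or more UMIs and no Ptpn18 UMI. The other 492 barcodes held some Ptpn18 but missed a threshold, and 11 further barcodes of the 1460 in the table had fewer than 50 UMIs.

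All barcodes came from 1 genotype, Atp4bCre; Rosa26NICD; Arid1aflox/flox, at 23 weeks of age, and no control genotype was part of the table. In this genotype the promoter of Atp4b, a proton pump subunit gene of parietal cells, drives Cre, which switches on the Notch intracellular domain from Rosa26 and deletes floxed Arid1a, a subunit gene of the BAF chromatin remodelling complex. Collagenase and dispase freed the cells from the glands, and those with strong EPCAM and weak Sytox Blue staining were sorted before 10x library preparation, so shares of barcodes describe the sorted fraction. The labels name 8 samples without saying whether they came from separate animals, and the barcodes carry no sample number. The table was therefore 1 pooled sample: no difference below has a replicate check, and no p-value is given. Whether Cre had acted in any of these barcodes was not tested.

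The table as used here held 779 complete gene rows, and 711 of them matched the annotation, all on mouse chromosome 1. The total of a barcode is thus its total over part of 1 chromosome and not its library depth. Levels are summed UMIs of a gene per 1000000 summed UMIs of a group (CPM). Intervals are exact 95% intervals (Poisson for a level, conditional binomial for a ratio of levels, Clopper-Pearson for a share of barcodes). They cover counting error only and no variation among samples or animals.

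Tuft cells, also called brush cells, are rare chemosensory cells of the gut epithelium that carry a tuft of long apical microvilli on actin bundles. They sense luminal signals through taste-type receptors and release mediators that act on immune cells and nerves. Ptpn18 and Inpp5d, the gene of the lipid phosphatase SHIP1, are both known from tuft cells, and Inpp5d is also a gene of blood cells. The label given to these barcodes was tuft-like. Of 40 listed tuft genes, 3 had a row here: Ptpn18, which chose the barcodes, Inpp5d and Ogfrl1. Inpp5d and Ogfrl1 had been named with the rule and picked on these data, so no listed tuft gene could be read independently of the choice. The other tuft markers were not analysed here, and the barcodes are called Ptpn18-rich rather than by a cell type.

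The promoter windows of the gene that chose the barcodes and of the gene with the highest ratio to the comparison group are shown because these genes carry most of what follows. Each is the 250 bases upstream of the gene start on the plus strand, from RefSeq on GRCm38.p6, at chr1:34459496-34459745 for Ptpn18 and chr1:87620062-87620311 for Inpp5d, with motif matches in capitals.
Ptpn18: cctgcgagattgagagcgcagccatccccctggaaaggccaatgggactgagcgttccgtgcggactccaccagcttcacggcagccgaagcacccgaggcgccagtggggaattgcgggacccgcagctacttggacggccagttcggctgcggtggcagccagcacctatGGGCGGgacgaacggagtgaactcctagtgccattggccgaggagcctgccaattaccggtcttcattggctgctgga
Inpp5d: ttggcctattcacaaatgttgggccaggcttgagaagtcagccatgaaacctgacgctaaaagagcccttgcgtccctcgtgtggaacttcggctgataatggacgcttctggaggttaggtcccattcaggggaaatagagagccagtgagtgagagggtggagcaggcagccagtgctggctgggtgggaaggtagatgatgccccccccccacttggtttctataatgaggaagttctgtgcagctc

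The motifs searched on both strands, none of which contains another, were the octamer ATGCAAAT of POU factors, the ETS motif CCGGAAGT, the GC box GGGCGG and the TATA box TATAAA. They occurred in 1.60%, 2.88%, 32.7% and 12.4% of 32851 RefSeq promoter windows of the same length. The Ptpn18 window held 1 GC box and was 64.0% G or C, whereas the Inpp5d window held no match and was 54.4% G or C. Of the other genes described below, Fam117b had 3 GC boxes, Map2 5 GC boxes in a window of 81.2% G or C, Sp140 2 GC boxes, and Vil1 1 GC box and 1 ETS motif. A match is a string of letters in this window and was not tied to any factor here.

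Ptpn18 (chromosome 1, 34459762 to 34475733, plus strand, GRCm38) chose the barcodes, so its values are a description. The 59 barcodes held 430 of its UMIs, with a lowest count of 3, a median of 6 and a highest of 24. Ptpn18 was between 1.01% and 21.1% of a barcode's UMIs, with a median of 2.91%, and its pooled level was 34452 CPM. Among the barcodes outside the rule, 366 had 1 Ptpn18 UMI, 105 had 2, 16 had 3, 2 had 4 and 3 had 5. Near the threshold the counts were close: the last barcodes inside had 3 UMIs of 296, 3 of 289 and 3 of 281 (1.01%, 1.04% and 1.07%), and the nearest outside had 5 of 504, 5 of 529 and 3 of 319 (0.992%, 0.945% and 0.940%). Both thresholds mattered equally often, since 21 barcodes had 3 or more UMIs at under 1% and 21 reached 1% with fewer than 3 UMIs.

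**Figure D1:**
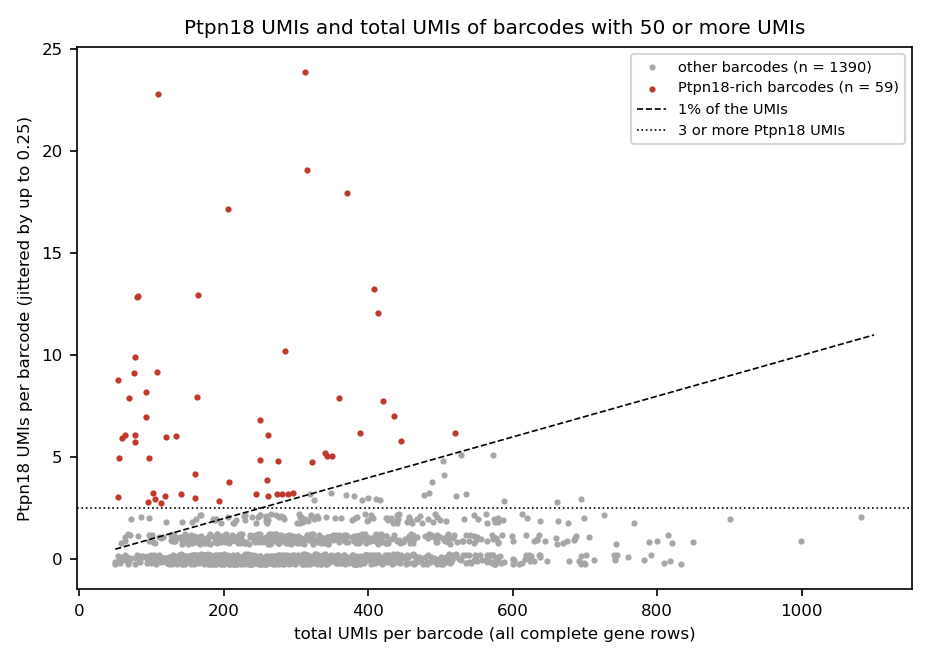
Ptpn18 UMIs (vertical axis, with a small vertical jitter) against total UMIs (horizontal axis) for the 1449 barcodes with 50 or more UMIs. The 59 Ptpn18-rich barcodes (red) lie above both the line at 1% and the line for 3 UMIs and reach 24 Ptpn18 UMIs, while no other barcode (grey) exceeds 5.

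Ptpn18-rich barcodes were shallower than the rest. Their totals ran from 54 to 520 UMIs with a median of 193, against 50 to 833 with a median of 261 in barcodes without Ptpn18. They had a median of 61 genes with a UMI, against 67. With each barcode thinned to 50 UMIs the order turned, to medians of 26 and 23 genes. At a given Ptpn18 count the share threshold favours low totals by construction, so comparisons within depth bins are given below.

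Against barcodes without Ptpn18, 265 genes other than Ptpn18 had 20 or more UMIs over both groups. A gene was called higher or lower when its levels differed at least 2-fold and the interval of the ratio left out 1. By this rule 26 genes (9.81%) were higher and 17 (6.42%) lower in Ptpn18-rich barcodes, 16.2% in either direction. The higher genes Inpp5d, St18, Map2, Sp100, Plekhm3, Abi2, Serpine2 and Sp140 had only 2 to 17 UMIs in the comparison group. They reached 20 UMIs only through the Ptpn18-rich barcodes, so their calls, and the share of higher genes that includes them, are a description. The median log2 ratio of all 265 genes was 0.13 with the 13 that had no UMI in the Ptpn18-rich barcodes ranked lowest, and 0.17 with these genes set at a floor of 3 counts. Medians of lists are given with such genes ranked lowest. The 4 other genes named with the rule, Inpp5d, Sgk3, Ogfrl1 and Fam117b, were all among those called higher, with a median log2 ratio of 3.23. They had been picked on these data, so their count is no independent evidence. The count of higher genes was 9 when, for each gene, the 3 richest barcodes of both groups were left out, 15 in thinned barcodes, and 14 in barcodes of 50 to 200 UMIs.

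**Figure D2:**
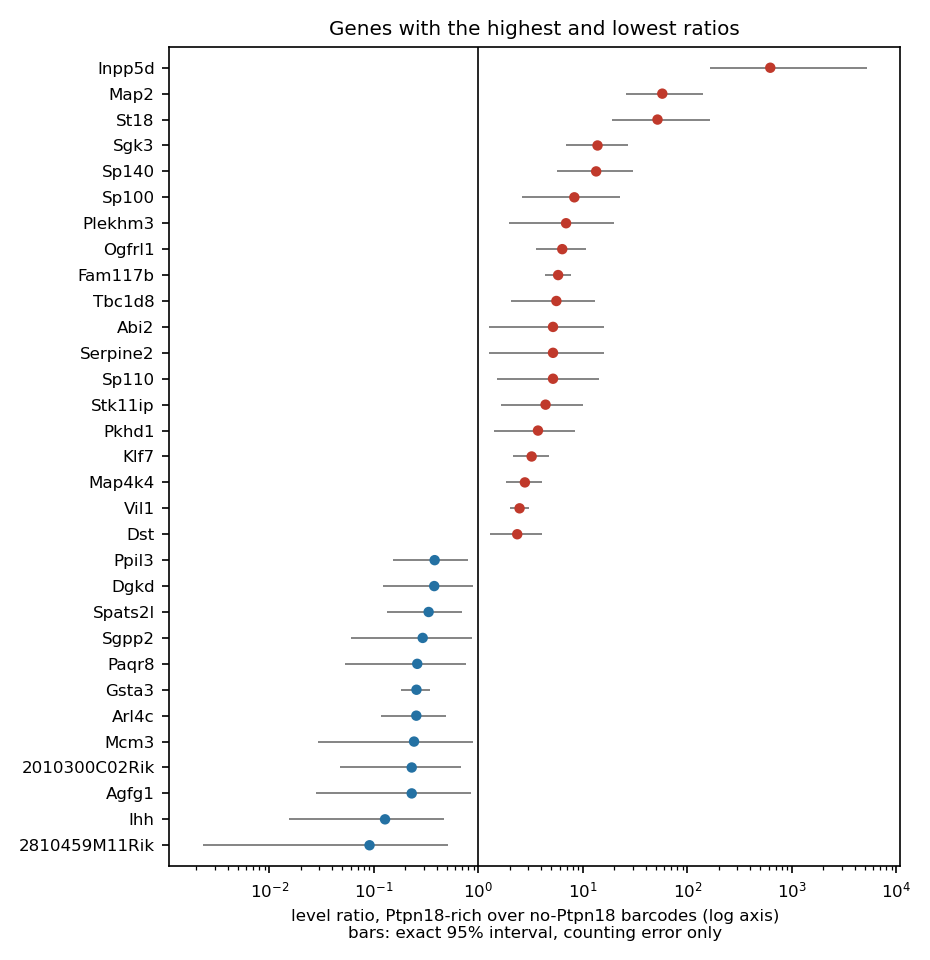
Level ratio of Ptpn18-rich barcodes to barcodes without Ptpn18 on a log axis, for 19 of the 20 genes with the highest ratio and the genes with a UMI among the 15 with the lowest, with exact 95% intervals of counting error. Inpp5d stands at 621, followed by Map2 at 57.5 and St18 at 51.8, and the lowest ratio drawn is 0.0909.

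The inositol lipid genes were led by Inpp5d (87620312 to 87720507, plus strand), whose product removes the 5-phosphate from PIP3 and thereby dampens PI3-kinase signalling. It had 60 UMIs in 30 of the 59 barcodes: 14 barcodes held 1, 7 held 2, 5 held 3, 3 held 4 and 1 held 5. In the 898 barcodes without Ptpn18 it had 2 UMIs, each in its own barcode. The levels were 4807 CPM (3668 to 6188) and 7.74 CPM (0.937 to 27.9), a ratio of 621 (165 to 5249.7). After thinning to 50 UMIs, 30.5% of Ptpn18-rich barcodes and 0 of the 898 comparison barcodes kept an Inpp5d UMI. A share of 0 was given a limit of 3 over the number of barcodes, here 0.334%, which is not an exact interval. Of the barcodes of both groups with Inpp5d, all but 2 were thus Ptpn18-rich, although 29 Ptpn18-rich barcodes had none.

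Sgk3, a kinase that binds PI3P on endosomes through its PX domain, was the other inositol lipid gene called higher. It had 16 UMIs in 13 Ptpn18-rich barcodes (1282 CPM, 733 to 2082) and 24 UMIs in 24 comparison barcodes (92.8 CPM), a ratio of 13.8 (6.86 to 27.1). In barcodes of 50 to 200 UMIs the Sgk3 ratio was 4.76 (1.11 to 16.1), on 15 UMIs over both groups, too few for a call. Of 20 listed genes of inositol lipid and inositol phosphate signalling, 9 had a row and 6 could be tested. Inpp5d and Sgk3 were higher, none was lower, and the median log2 ratio was 1.13 (1.57 with Pikfyve, which had no UMI, at the floor). Both genes called higher had been picked on these data with the rule, so this count and median are no independent evidence. Over all 265 genes, 9.81% were higher and the median was 0.13. Inpp1, an inositol phosphate 1-phosphatase (4 UMIs, ratio 2.96, 0.754 to 8.46), and Inpp4a, a PIP2 4-phosphatase (4 UMIs, ratio 1.62), had intervals that held 1, as did Irs1, the insulin receptor substrate (4 UMIs, ratio 0.891, 0.238 to 2.36). Pikfyve, the kinase that makes PI(3,5)P2, had no UMI in Ptpn18-rich barcodes and 21 in the others, which at these totals leaves a ratio of up to 3.98. The other 4 tested genes of the list were thus each on 4 or fewer UMIs and not called.

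Among 26 listed protein kinases and phosphatases, 16 had a row. Besides Ptpn18, 11 could be tested, with a median log2 ratio of 0.82 against 0.13 over all 265 genes. Of these 11, 3 were higher (Sgk3, Map4k4 and Stk17b), beside 9.81% of all 265 genes. Sgk3 had been picked on these data with the rule. The only member called lower was Ppil3 (ratio 0.382, 0.152 to 0.794), a peptidyl-prolyl isomerase and neither a kinase nor a phosphatase. Over all 265 genes, 6.42% were lower. Map4k4, a Ste20-type kinase upstream of stress-activated signalling, had 30 UMIs in 24 Ptpn18-rich barcodes and a ratio of 2.79 (1.84 to 4.09). Stk17b, a death-associated kinase well known in lymphocytes, had 16 UMIs in 7 barcodes and a ratio of 2.29 (1.27 to 3.84), but 14 of the 16 lay in barcodes that also held a UMI of a leukocyte gene, and without such barcodes the ratio was 0.368. Stk16, a Golgi-associated kinase, did not separate the groups (ratio 1.05, 0.745 to 1.45). Ptprn, a phosphatase-like protein of secretory granules, had no UMI in Ptpn18-rich barcodes and 70 in the others, with an interval of the ratio that reached 1.12, and it was not called.

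Fam117b, a gene of little known function, had 68 UMIs in 25 of the 59 barcodes. Their counts were uneven: 34 barcodes had none, 7 had 1, 11 had 2, 3 had 3, and single barcodes held 5, 6, 9 and 10. The level was 5448 CPM (4231 to 6907) against 939.8 CPM (825 to 1066), a ratio of 5.80 (4.36 to 7.61). Fam117b was also present in 22.4% of the comparison barcodes, so here the groups differed in amount and overlapped in presence. Ogfrl1, named for its likeness to the opioid growth factor receptor, had 19 UMIs in 11 Ptpn18-rich barcodes, with up to 4 in a barcode, and a ratio of 6.35 (3.59 to 10.8). In barcodes of 50 to 200 UMIs its ratio was 2.18 (0.237 to 9.80), with 14 UMIs over both groups.

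Vil1 was higher as well. It encodes villin, which bundles actin in microvilli, and it was detected in 43 of the 59 Ptpn18-rich barcodes with a median of 2 and up to 9 UMIs in a barcode. Its level was 8733 CPM (7171 to 10535) against 3523 CPM (3298 to 3759.7), a ratio of 2.48 (2.01 to 3.03). Thinned to 50 UMIs, 39.0% of Ptpn18-rich and 15.4% of comparison barcodes kept a Vil1 UMI. With the share threshold lowered to 0.5%, the Vil1 ratio was 1.86 (1.54 to 2.23), under the 2-fold limit.

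Map2, a microtubule-associated protein known from neuronal dendrites, had 25 UMIs in 18 Ptpn18-rich barcodes and 9 UMIs in 9 comparison barcodes, which gave 2003 CPM (1296 to 2957) against 34.8 CPM (15.9 to 66.1) and a ratio of 57.5 (26.0 to 140.1). After thinning 0 of 898 comparison barcodes kept a Map2 UMI (up to 0.334% by the same limit), against 15.3% of the Ptpn18-rich ones. Dst, which encodes the cytoskeletal linker dystonin, had 15 UMIs in 13 barcodes and a ratio of 2.35 (1.28 to 4.03). The Dst call was lost in barcodes of 100 or more UMIs, at 1.57 (0.703 to 3.08). Abi2, an adaptor of the WAVE complex of actin assembly, rested on 4 UMIs (ratio 5.18, 1.26 to 16.1).

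Of the transcription factors, St18, a zinc finger protein of the MYT family, had 15 UMIs in 11 Ptpn18-rich barcodes and 6 UMIs in 4 comparison barcodes. Its levels were 1202 CPM (673 to 1982) and 23.2 CPM (8.52 to 50.5), a ratio of 51.8 (19.0 to 163). In smaller sets of barcodes St18 often fell under 20 UMIs and could not be called, at ratios of 18.0 or more. Klf7, a Krüppel-like factor, had 32 UMIs in 19 barcodes and a ratio of 3.23 (2.15 to 4.71), which was 1.45 (0.451 to 3.65) in barcodes of 50 to 200 UMIs. The neighbouring paralogs Sp140, Sp110 and Sp100, chromatin readers of nuclear bodies that are prominent in immune cells, had 11, 5 and 6 UMIs and ratios of 13.4 (5.68 to 30.3), 5.18 and 8.29. Reads of these paralogs may be shared among copies, so their division is uncertain. For Sp140, 7 of the 11 UMIs lay in 3 barcodes. Tbc1d8, a Rab GTPase-activating protein with a ratio of 5.58 on 7 UMIs, overlaps the abundant Rpl31 on the opposite strand, and the labels do not say whether counting used the strand.

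Another 8 genes called higher had ratios from 2.07 to 6.91. Wdfy1, a PI3P-binding protein of endosomes, was the most widely detected of them, with 36 UMIs in 20 Ptpn18-rich barcodes, up to 7 in a barcode, and a ratio of 2.21 (1.52 to 3.12). Agap1, an Arf GTPase-activating protein of endosomal traffic, had 14 UMIs in 13 barcodes (ratio 2.20, 1.17 to 3.82), and Lman2l, a cargo lectin of the early secretory pathway, had 12 in 10 (ratio 2.12, 1.07 to 3.85). Pkhd1, which encodes the cilium protein fibrocystin, Rnf149, Plekhm3, Stk11ip and the protease inhibitor gene Serpine2 had 4 to 12 UMIs each. The 4 UMIs of Serpine2 came from 2 barcodes, both with Inpp5d, and Pkhd1 stood at 0.923 in the barcodes without Inpp5d.

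Of the genes called lower, the most abundant in the comparison group was Gsta3, a glutathione transferase of the alpha class. Ptpn18-rich barcodes held 41 Gsta3 UMIs, all in 10 barcodes, and 24 of them in 3. Comparison barcodes held 3323 UMIs in 638 barcodes, which was 71.0% of them against 16.9%. Its level was 3285 CPM (2357 to 4456) against 12852 CPM (12418 to 13296), a ratio of 0.256 (0.183 to 0.348). Rdh10, the retinol dehydrogenase that starts retinoic acid synthesis, was lower in the same manner, with 42 UMIs in 14 barcodes and a ratio of 0.388 (0.279 to 0.527). With the share threshold lowered to 0.5% the ratios were 0.595 for Gsta3 and 0.916 (0.778 to 1.07) for Rdh10, so both calls rested on the stricter set. Alpha-class transferases are close paralogs, and the labels do not say how reads shared among them were counted.

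Of 11 listed glutathione, retinol and other oxidoreductase genes, 9 had a row and 7 could be tested. Gsta3 and Rdh10 were lower, beside 6.42% of all 265 genes. Cyp20a1, an orphan cytochrome P450, was higher (22 UMIs, ratio 2.14, 1.31 to 3.33), beside 9.81% of all 265 genes. The median log2 ratio was -0.65 against 0.13 over all 265 genes. Idh1, the cytosolic isocitrate dehydrogenase, had a ratio of 0.637 (0.485 to 0.821) and missed the 2-fold limit.

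Among the other genes called lower, Tm4sf20, a tetraspan membrane protein, and Ccl20, a chemokine that draws CCR6-bearing lymphocytes and dendritic cells, had no UMI in the 59 barcodes against 276 and 256 in the comparison group. With the floor of 3 counts over the Ptpn18-rich group they were at least 4.44-fold and at least 4.12-fold lower, and the exact intervals of their ratios reached 0.279 and 0.301. Ihh, the hedgehog ligand Indian hedgehog, had 2 UMIs against 324, a ratio of 0.128 (0.0154 to 0.466). Arl4c, a small GTPase that acts on the actin cytoskeleton, had 9 UMIs against 732, a ratio of 0.255 (0.116 to 0.486). Alpi, intestinal alkaline phosphatase, was at 0 against 103 UMIs and at least 1.66-fold lower by the same floor (interval up to 0.755), which is a bound below the 2-fold limit, and its ratio was 1.31 with the share threshold at 0.5%. Beside Mcm3 and Fn1, described below, the other 8 genes called lower, among them the sphingosine-1-phosphate phosphatase gene Sgpp2 (ratio 0.293, 0.0600 to 0.868) and the diacylglycerol kinase gene Dgkd (0.378, 0.122 to 0.893), had 1 to 7 UMIs each and ratios from 0.0909 to 0.382. For Ihh, Tm4sf20 and Ccl20, barcodes of 50 to 200 UMIs again held none of their UMIs on the Ptpn18-rich side, with intervals that reached 1.02, 1.33 and 1.26.

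Lists of other cell types were thinly covered. Their calls stand beside 9.81% of all 265 genes called higher and 6.42% called lower. With so few genes tested in each, a single call is no result about a list. The enterocyte list, which holds Vil1, had 6 genes with a row and 3 tested, with a median log2 ratio of 0.05. Vil1 was higher, Alpi was lower, and Cyp27a1 was not called. Alpi, Akp3, Alppl2 and Cps1 had no UMI in the Ptpn18-rich barcodes. Of 5 replication and mitosis genes with a row, all tested, 1 was lower and none higher, with a median log2 ratio of -0.53 (-0.49 with Prim2 at the floor): the replication helicase subunit Mcm3 had 2 UMIs against 171 (ratio 0.242, 0.0291 to 0.889), and the primase subunit Prim2 had 0 against 56. Hormone cell and secretory granule genes with a row, 5 in all, had 1 UMI together in the Ptpn18-rich barcodes and 196 in the comparison barcodes. Those 196 lay in 44 of the 898 barcodes, with up to 37 in a barcode, and none of the 3 genes tested was called, with a median log2 ratio of -0.17 (Ptprn and Igfbp2, at 0 UMIs, set at the floor). Stromal genes with a row, 9 in all, had 21 UMIs in 15 barcodes; the collagen genes Col3a1 and Col5a2 and the muscle gene Des were at 0, and fibronectin, Fn1, was the only gene called lower among the 4 tested (ratio 0.453, 0.181 to 0.945, and 1.23 when 2 Ptpn18 UMIs sufficed). Parietal, chief, neck and pit cell genes were represented by 2 rows, neither of them called. Slc9a4, a sodium-proton exchanger abundant in parietal cells, had 19 UMIs in 10 barcodes and a ratio of 0.652 (0.390 to 1.03).

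Cytosolic ribosome and elongation genes, 4 with a row, gave no call, beside 16.2% of all 265 genes called in either direction, and a median log2 ratio of -0.20. Mitochondrial genes, 11 with a row and all tested, gave no call and a median of -0.09. The respiratory chain subunit genes Ndufb3 and Ndufs1 were nevertheless higher by less than 2-fold, Ndufb3 at 1.40 (1.19 to 1.63) and Ndufs1 at 1.64 (1.11 to 2.36), and the mitochondrial chaperonin gene Hspd1 was below at 0.584 (0.456 to 0.737).

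Leukocyte genes were measured because Inpp5d is also expressed in blood cells, although the sort took EPCAM-positive cells. Of 10 listed lymphoid and 5 myeloid genes with a row, 1 (Sp140) of the 4 with enough UMIs was called higher, beside 9.81% of all 265 genes. These 4 were lymphoid genes, with a median log2 ratio of -0.39 against 0.13 over all 265 genes. The lymphoid genes summed to 0 to 7 UMIs in a Ptpn18-rich barcode and 0 to 9 in a comparison barcode (36 UMIs in 20 barcodes and 462 in 315), and the myeloid genes to 0 to 6 and 0 to 2 (15 UMIs in 6 barcodes and 7 in 6). The 10 genes of these lists with fewer than 50 UMIs in the table were pooled. This cutoff left out the lymphoid genes Il18r1, Il18rap and Ikzf2, which were tested and not called. The levels of all of these left-out genes were lower in the Ptpn18-rich barcodes. At least 1 UMI of the 10 pooled genes was found in 12 of 59 Ptpn18-rich barcodes, 20.3% (10.98 to 32.8). In barcodes without Ptpn18 the share was 32 of 898, 3.56% (2.45 to 4.99), and in barcodes with Ptpn18 outside the rule 18 of 492, 3.66% (2.18 to 5.72). The Ptpn18-rich barcodes thus held UMIs of these 10 genes more often, at a lower median total (193 against 261 UMIs). For the whole lymphoid list the contrast was absent, with a UMI in 20 of 59 and 315 of 898 barcodes.

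Single leukocyte genes sat in few barcodes. Il1r2, the decoy interleukin-1 receptor of neutrophils and some T cells, had 13 UMIs in 6 Ptpn18-rich barcodes, 6 of them in 1 barcode, and 4 UMIs in the comparison group (ratio 67.3, 20.8 to 283, on fewer than 20 UMIs). Ctla4, an inhibitory receptor of T cells, had 6 UMIs in 2 Ptpn18-rich barcodes and 5 UMIs in 2 comparison barcodes. Stat4 had 2 UMIs, Dock10 2, Cxcr2 2 and Cd28 1, whereas Icos, Zap70, Slc11a1, Cxcr1 and Il1rl1 were at 0.

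The genes that distinguished Ptpn18-rich barcodes did not divide alike over this split. Inpp5d had a UMI in 7 of the 12 barcodes with a leukocyte gene UMI and in 23 of the other 47, at levels whose ratio was 1.01 (0.501 to 1.90). Map2 and St18 were detected in 0 of the 12, which allows a share of up to 25%, and in 18 and 11 of the 47. Vil1 was lower in the 12 (9 UMIs against 100, ratio 0.328, 0.146 to 0.648). Il1r2 and Sp140 were found in them alone because they are among the 10 genes, Sp140 with 11 UMIs in 7 of the 12. Without the barcodes that held a leukocyte gene UMI, 25 genes were higher and 12 lower. Of the full set, 18 of the 26 higher genes and 12 of the 17 lower genes were shared. The loss of the Sp140 call in this setting was fixed by how the barcodes were chosen. Whether leukocyte RNA or cells had a part in the other differences was not tested.

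Read barcode by barcode, the genes overlapped only in part. Of Inpp5d, Sgk3, Ogfrl1 and Fam117b, 16 Ptpn18-rich barcodes had none, 19 had 1, 16 had 2, 4 had 3 and 4 had all 4. At least 2 of the 4 were found in 24 of 59 Ptpn18-rich and 20 of 898 comparison barcodes. With St18 and Map2 added, 13 of the 59 held none of the 6 genes, and at least 2 were found in 33 of 59 against 24 of 898. The first 4 genes had been picked on these data with the rule, and St18 and Map2 were named for their high ratios here. The shares of both groups are therefore a description and no independent evidence. Inpp5d and Fam117b shared 17 barcodes, Inpp5d and Map2 10, and Inpp5d and St18 8. Inpp5d shared only 2 with Gsta3 and 2 with Rdh10. At these totals a missing UMI does not show that a gene was silent.

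**Figure D3:**
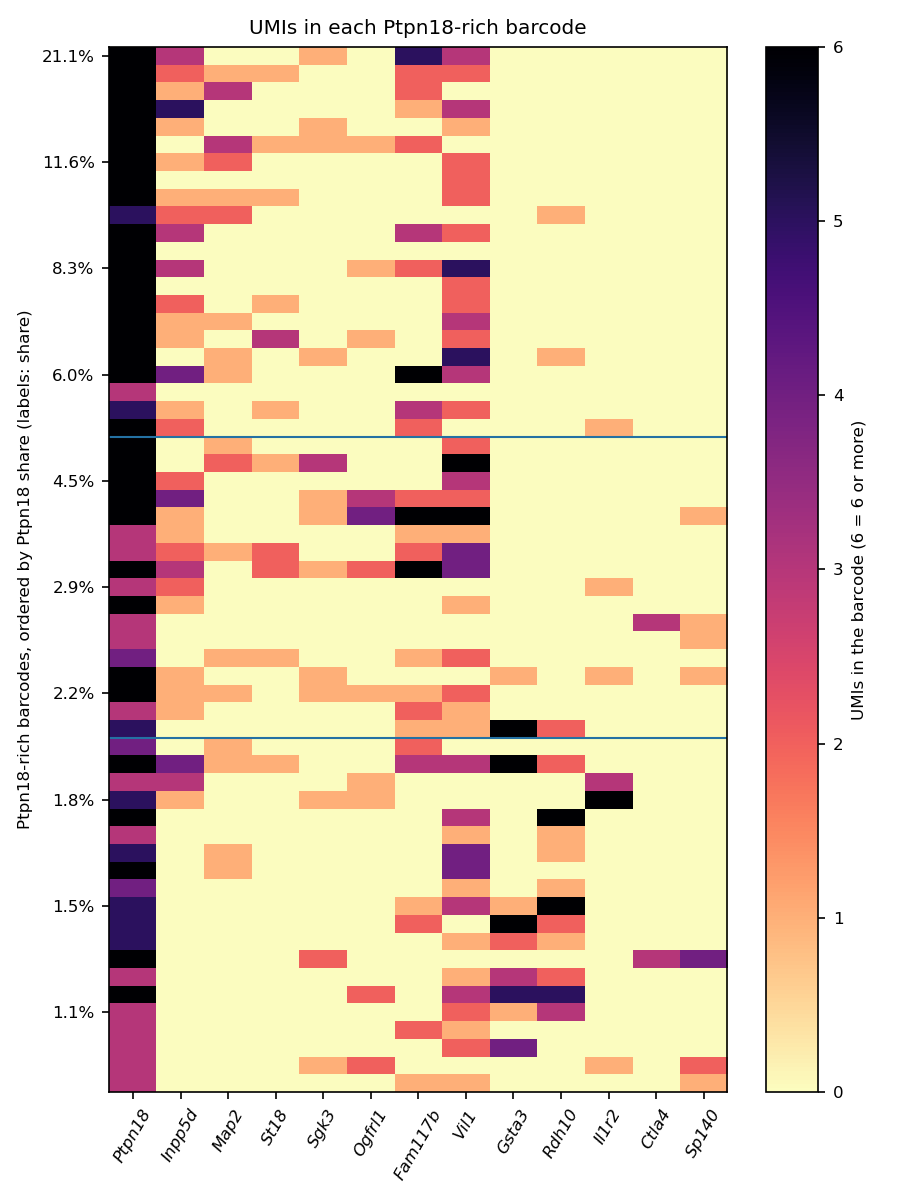
UMIs of Ptpn18 and 12 other genes (columns) in each of the 59 Ptpn18-rich barcodes (rows), ordered by the Ptpn18 share from 21.1% at the top to 1.01% at the bottom, with colour giving 0 to 6 or more UMIs. Blue lines mark Ptpn18 shares of 5% and 2%. Gsta3 and Rdh10 UMIs gather at the bottom, with 12 of the 16 barcodes that hold one below 2%, and Inpp5d UMIs are frequent above that line.

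The 59 barcodes were not uniform along the Ptpn18 share. They were divided at 2% and 5%, which gave 20, 17 and 22 barcodes with median totals of 292.5, 163 and 80.5 UMIs. The total is the denominator of the share, so the bands differ in depth by construction. The share is also a value that the rule used. Differences between the bands, here and below, are therefore a description and no independent evidence. Inpp5d was found in 3 of 20, 11 of 17 and 16 of 22 barcodes, and its level went from 1269 CPM to 5089.7 CPM and 13514 CPM, a ratio of 10.7 (4.82 to 26.7) between the top and bottom bands. Map2 differed 9.68-fold (3.09 to 40.1) between these bands, Fam117b 7.28-fold (3.56 to 16.1) and Vil1 3.53-fold (2.15 to 5.85). Sgk3 had 4 UMIs in each of the top and bottom bands, and the interval of its ratio was wide (2.58, 0.481 to 13.9).

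Gsta3 and Rdh10 had the opposite order. Gsta3 was at 4757 CPM in barcodes under 2%, at 2947 CPM between 2% and 5%, and at 0 of 2442 UMIs in barcodes of 5% or more (upper limit 1511 CPM). Rdh10 was at 6026 CPM, 536 CPM and 819 CPM. A UMI of Gsta3 or Rdh10 was present in 12 of the 20 barcodes under 2% and in 2 of the 22 of 5% or more, and at least 2 of the 6 genes above were present in 5 of 20 and 18 of 22. Barcodes with Ptpn18 outside the rule had Inpp5d at 63.4 CPM (7.74 CPM without Ptpn18), Fam117b at 1027 CPM (939.8), Vil1 at 4141 CPM (3523) and Gsta3 at 15406 CPM (12852). They lay below the band of 1 to 2% for the first 3 of these genes and above it for Gsta3.

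**Figure D4:**
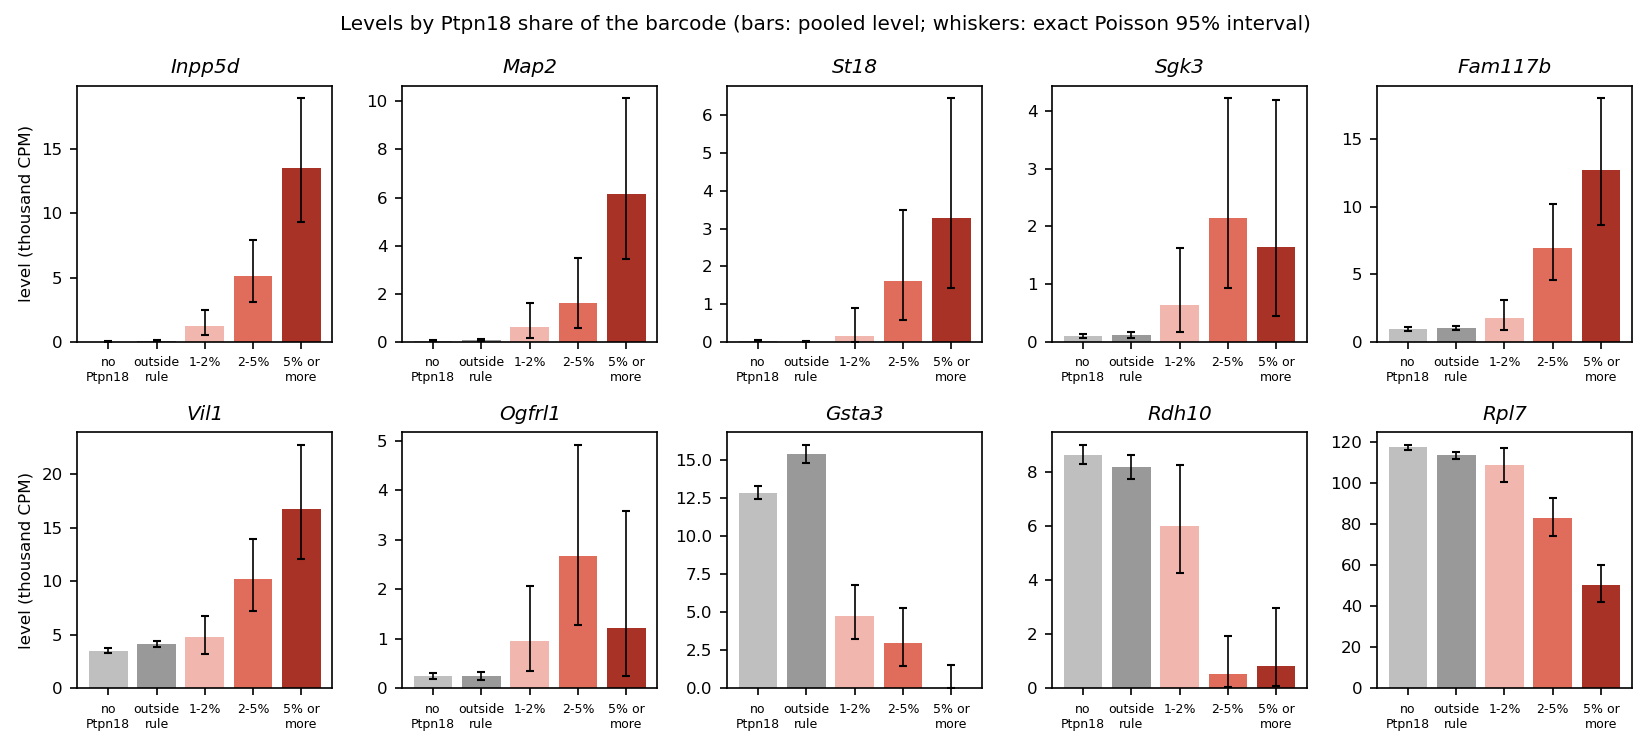
Pooled level of 10 genes in units of 1000 CPM (bars, axis from 0, a scale of its own for each gene) in barcodes without Ptpn18, barcodes with Ptpn18 outside the rule, and Ptpn18-rich barcodes at 1 to 2%, 2 to 5% and 5% or more Ptpn18, with exact Poisson 95% intervals. Inpp5d, Map2, Fam117b and Vil1 are highest in the last band, and Gsta3 has no UMI there.

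The barcodes with and without Inpp5d differed in the other genes too. The 30 with Inpp5d had a median total of 114.5 UMIs and the 29 without it 260. Fam117b was 6.33-fold (3.35 to 13.0) higher in those with Inpp5d, St18 5.42-fold (1.46 to 29.9), Ogfrl1 3.80-fold (1.29 to 13.5) and Vil1 1.60-fold (1.08 to 2.38). Gsta3 and Rdh10 were lower, at ratios of 0.279 (0.104 to 0.640) and 0.104 (0.0206 to 0.328). For Map2 (1.73, 0.728 to 4.20) and Sgk3 (1.36, 0.444 to 4.14) the intervals held 1.

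The 29 barcodes without an Inpp5d UMI were then set against barcodes without Ptpn18 on their own. They had 9 genes called higher and 10 called lower, and 7 of the 9 were shared with the full set, among them Sgk3, Map4k4, Cyp20a1, Klf7, Map2 and Sp140. Fam117b (1.78, 0.906 to 3.16), Ogfrl1 (2.90, 0.911 to 7.15) and Vil1 (1.98, 1.46 to 2.63) no longer met the rule there, and Rdh10 stood at 0.627 (0.444 to 0.859). The intervals of Vil1 and Rdh10 still left out 1, and those of Fam117b and Ogfrl1 did not.

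Several of the larger differences were also present among barcodes of similar depth. The Ptpn18-rich barcodes fell into 16 with under 100 UMIs, 14 with 100 to under 200, 23 with 200 to under 400 and 6 with 400 or more, beside 34, 242, 450 and 172 comparison barcodes. Inpp5d had 21 UMIs against 0 in the shallowest bin, 15 against 0 in the next, and ratios of 305 (47.4 to 12800) and 271 in the deeper bins. Fam117b ratios were 7.64, 5.00, 3.46 and 10.0 from shallow to deep. Vil1 ratios were 4.91 (2.40 to 10.6), 2.69, 2.00 (1.44 to 2.72) and 1.92 (1.14 to 3.04). Gsta3 had no UMI in the 2 shallower bins and ratios of 0.323 (0.217 to 0.463) and 0.315 in the deeper ones. Rdh10 was lower in 3 bins (0.125, 0.0717 and 0.324) and stood at 0.882 (0.520 to 1.41) in the deepest, which held 6 Ptpn18-rich barcodes.

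Rpl7, a protein of the large ribosomal subunit, made up less of the shallow, Ptpn18-rich barcodes. Its share of a barcode's UMIs ran from 1.45% to 22.6% with a median of 11.6% in barcodes without Ptpn18, and from 0% to 15.7% with a median of 7.60% in Ptpn18-rich barcodes. Medians were 10.8%, 8.07% and 3.92% in the bands of 1 to 2%, 2 to 5% and 5% or more Ptpn18. The pooled ratio was 0.763 (0.718 to 0.810), under the 2-fold limit. In the bin under 100 UMIs the ratio was 0.336 (0.229 to 0.482), and 4 of 16 Ptpn18-rich barcodes had no Rpl7 UMI against 0 of 34 (which allows up to 8.82%). The Rpl7 ratio was 0.634 (0.531 to 0.7504), 0.822 (0.760 to 0.888) and 0.911 (0.805 to 1.03) in the deeper bins.

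Rpl37a, another protein gene of the large subunit, did not move with it: the pooled ratio was 0.970 (0.931 to 1.01) and the ratio in the shallowest bin 1.33 (1.15 to 1.55). In that bin there were 0.123 Rpl7 UMIs per Rpl37a UMI in Ptpn18-rich barcodes and 0.486 in the others. Both genes have processed pseudogene copies elsewhere in the genome. The low Rpl7 share occurred in the same barcodes as the high Inpp5d and Map2 levels and a low total, and the part of RNA quality in those levels was not tested.

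**Figure D5:**
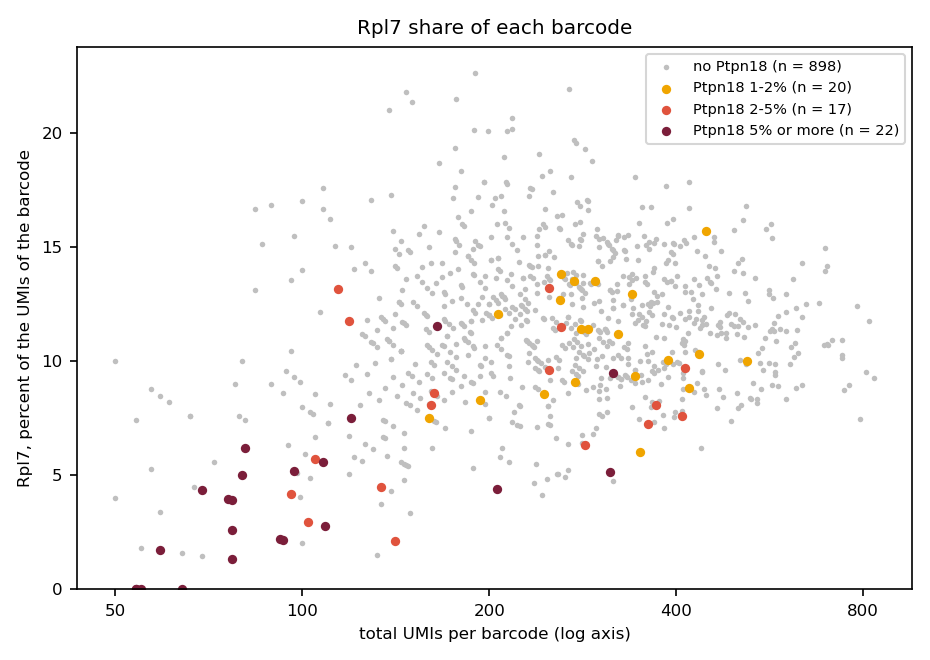
Rpl7 share in percent of a barcode's UMIs (vertical axis) against its total UMIs (horizontal log axis), for barcodes without Ptpn18 (grey, n = 898) and Ptpn18-rich barcodes coloured by Ptpn18 share (n = 20, 17 and 22). Barcodes with 5% or more Ptpn18 (dark) lie at the lower left with a median Rpl7 share of 3.92%, and those at 1 to 2% lie among the grey points with a median of 10.8%.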

How the data were processed

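The only file the authors deposited that was used here is a table of raw counts per gene and barcode. It was made with Cell Ranger and Seurat 2.3.0 on mm10, per the submitters' processing notes, while settings, annotation and filters were not given in the sources used here. Counts were read as UMIs. The last gene row was incomplete (928 of 1460 values, all 0) and was left out. All 1460 barcodes were distinct, and the number of unused value columns was 0. No doublet caller was run, and doublets were not removed. Coordinates are GENCODE vM21 on GRCm38, the assembly of mm10, and 68 symbols found no match.

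Groups were compared by pooled levels with exact intervals (scipy 1.17.1, Python 3.11.15), checked on simulated counts. Genes in the text came from 15 lists of 254 genes with a UMI in Ptpn18-rich barcodes or 20 UMIs over both groups, plus the 20 highest and 15 lowest ratios. The members and lists were chosen with earlier results of these data known. Thinning drew 50 UMIs per barcode with a fixed seed. Results of 1 gene are not reported here.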

Additional observations from a re-analysis of the deposited data

Results flagged for a closer look

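Ptpn18 appeared outside the groups compared. The 11 barcodes with fewer than 50 UMIs held 5 Ptpn18 UMIs in 3 barcodes, a level of 13624 CPM (4424 to 31794). It is listed because these barcodes are in no comparison. The interval includes 8174 CPM, the level that the floor of 3 counts gives at their summed total of 367 UMIs. Ptpn18 is also the gene that chose the barcodes, so the value is a description. Inpp5d was seen in 9 of the 492 barcodes with Ptpn18 outside the rule, with 11 UMIs and a level of 63.4 CPM (31.7 to 114), above the 7.74 CPM of barcodes without Ptpn18. These 9 barcodes held 1 to 3 Ptpn18 UMIs and a median total of 265 UMIs, and 2 of them held a leukocyte gene UMI.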

How the results depend on the processing

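The main values were 59 Ptpn18-rich barcodes, 26 genes higher and 17 lower. The number of barcodes was 39 at a share of 2% or more. Genes called higher numbered 14 in barcodes of 50 to 200 UMIs, 15 after thinning to 50 UMIs, 9 without the 3 barcodes richest in each gene in both groups, 17 at a fold of 3, and 9 for Ptpn18-rich barcodes without Inpp5d. Genes called lower numbered 8 after thinning, 40 without the 3 richest barcodes, 43 at a fold of 2 with no condition on the interval, and 10 for barcodes without Inpp5d. Leaving out 3 barcodes of each group removes a larger share of 59 barcodes than of 898, and thinned or shallow sets hold fewer UMIs. The counts under the other settings stayed within 1.5 times.

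The single-gene ratios were recomputed 1175 times, for 87 genes in 14 settings. In 1007 cases they stayed within the interval of the reported ratio, or were a lower bound above 1 where the comparison group had no UMI. They left the interval in 161, and the ratio of a called gene turned in 7. Lower bounds could lie under the interval, as for Inpp5d at 157 in barcodes of 50 to 200 UMIs. Stk17b turned to 0.756 without the 3 richest barcodes and to 0.368 without barcodes with a leukocyte gene UMI. Fn1 turned to 1.23 with 2 or more Ptpn18 UMIs, and Alpi to 1.31 at a share of 0.5%. Serpine2 fell to 0 without the 3 richest barcodes and without Inpp5d barcodes, and Pkhd1 stood at 0.923 without Inpp5d barcodes. The cause of these turns was not tested. The settings on leukocyte genes and on Inpp5d were chosen after seeing the data. No paired analysis was possible because all samples are of 1 group and the barcodes carry no sample. Counts from part of 1 chromosome limit genes with few UMIs.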
